A study of Mus musculus with 4 samples.

Results

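NR6A1 peaks were described at one stretch of mouse chromosome 3, the window that holds Mcl1, Adamtsl4 and Ecm1. Members were the chromatin immunoprecipitation (ChIP-seq) peaks whose midpoint lay at chr3:95430000-95570000 of genome build mm9, a window of 140 kb. Replicate 1 had 16 such peaks of 21507 in its list, and replicate 2 had 14 of 16160. Peaks of both lists that overlapped by at least 1 bp were merged, which gave 19 regions in the window of 28444 in all. The window was chosen by the positions of the peaks themselves, because regions found in both lists gather in it. Its peak positions, overlaps and scores are therefore given as a description, with no test against other places.

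Both lists came from immortalized mesenchymal stem cells of C57BL/6 mice, kept as monoclonal lines with floxed Dicer alleles (Dicer f/f) and called Dicer WT in the labels. The 2 samples used (n = 2) had been infected with pMMP-puro-Flag-HA-NR6A1, a retroviral construct for the doubly tagged receptor, and selected with puromycin, and bound DNA was recovered with an antibody to HA. The protein was thus expressed from a retrovirus in monoclonal cells, and the peak lists do not give its native level in these cells. The 2 samples with the empty vector, which shared the genotype, selection and antibody, are not analysed here, and what the antibody recovers at this locus without the tagged protein is not given. The lists hold no expression values, and the cell type was not checked against markers. No label says whether the replicates were separate cultures.

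NR6A1, also called germ cell nuclear factor, is an orphan nuclear receptor. It binds DNA as a dimer at direct repeats of a short nuclear receptor core motif without a spacer, and is known as a repressor of pluripotency genes as embryonic cells differentiate. The series asked which sites the tagged protein occupies in adult mesenchymal stem cells. Of the genes of the window, Mcl1 encodes a short-lived protein of the BCL2 family that protects cells from apoptosis. Adamtsl4 encodes a secreted glycoprotein that binds fibrillin microfibrils, and human mutations in it displace the lens of the eye. Ecm1 encodes a secreted glycoprotein of skin and other connective tissues, and loss of its human counterpart causes lipoid proteinosis.

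In the RefSeq table of build GRCm38.p6, Mcl1, Adamtsl4 and Ecm1 follow each other on chromosome 3 in this order. Gm52627, a long noncoding RNA gene, is listed between Mcl1 and Adamtsl4, and no gene is listed between Adamtsl4 and Ecm1. Before Mcl1 come the pseudogene Rps10-ps1 and Ensa, which encodes an inhibitor of a protein phosphatase in mitosis. After the start of Ecm1 come the microRNA gene Mir7014 and Tars2, the mitochondrial threonyl-tRNA synthetase. The table is of another build than the peak lists, and positions were not moved between builds. No peak is therefore assigned to a promoter, exon or intron, and the place of the window at these 3 genes is that of the rule that chose it.

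The promoters of the 3 genes are shown because they carry the sequence context in which a receptor site would be read. Each is the 250 bases before the gene's start from RefSeq, build GRCm38.p6, written 5′ to 3′ on the gene's strand. Its coordinates do not compare with the mm9 positions of the peaks. Capitals mark the stretches with the fewest mismatches to TCAAGGTCA, the core motif AGGTCA with an extension at its 5′ side, on either strand. Mcl1 lies at chr3:95658471-95658720 on the plus strand, Adamtsl4 at chr3:95687918-95688167 and Ecm1 at chr3:95739570-95739819 on the minus strand.
Mcl1: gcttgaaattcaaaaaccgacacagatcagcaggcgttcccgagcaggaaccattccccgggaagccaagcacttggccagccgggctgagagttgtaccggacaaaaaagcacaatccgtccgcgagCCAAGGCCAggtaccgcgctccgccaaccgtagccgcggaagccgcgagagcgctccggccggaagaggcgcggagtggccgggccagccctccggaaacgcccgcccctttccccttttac
Adamtsl4: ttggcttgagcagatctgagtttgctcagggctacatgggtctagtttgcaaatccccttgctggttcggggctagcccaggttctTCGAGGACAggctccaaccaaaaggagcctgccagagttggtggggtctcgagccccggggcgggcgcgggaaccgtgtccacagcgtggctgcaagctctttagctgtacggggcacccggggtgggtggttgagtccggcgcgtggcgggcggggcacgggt
Ecm1: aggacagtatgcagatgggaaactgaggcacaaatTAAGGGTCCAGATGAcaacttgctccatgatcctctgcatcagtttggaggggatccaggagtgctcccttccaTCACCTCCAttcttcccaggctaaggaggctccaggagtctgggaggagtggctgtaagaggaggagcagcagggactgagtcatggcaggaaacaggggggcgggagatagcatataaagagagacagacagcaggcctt

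None of these 3 stretches held the core motif AGGTCA on either strand, and so none held TCAAGGTCA or the direct repeat of AGGTCA without a spacer, which both contain it. Over all 32851 promoters of the table, cut to the same 250 bases, 14.0% held AGGTCA, 0.387% held TCAAGGTCA and 2 promoters held the direct repeat. The closest stretch had 2 mismatches to TCAAGGTCA in Mcl1, beginning 122 bases before the start, and 2 in Adamtsl4, beginning 164 bases before it. In Ecm1 it had 3, in 3 stretches, and 97.6% of all promoters held a stretch with 3 mismatches or fewer. A stretch with 2 mismatches or fewer was present in 46.8% of all promoters, so those of Mcl1 and Adamtsl4 are near the common level. The promoters of Mcl1 and Adamtsl4 were both 64.4% G and C, with 26 and 17 CG pairs, against 54.0% and 1 CG pair in Ecm1. Over all promoters the medians were 52.4% and 6. Mcl1 and Adamtsl4 thus have CG-rich starts and Ecm1 does not. Whether any of these 3 stretches lies under a peak is not known, because positions were not moved between builds. The sequence under the peaks was not used here.

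The window stood out from the 1 Mb around it by the number of NR6A1 peaks. It held 11.4 peaks per 100 kb in replicate 1, against 2.09 in the rest of chromosome 3 from 95 to 96 Mb. In replicate 2 it held 10.0 per 100 kb, against 1.98 in the rest. Peaks covered 6.51% of the window in replicate 1 and 7.68% in replicate 2, against 1.11% and 1.48% of the rest. The window was set off by stretches without a peak in either list, of 96.3 kb before its first peak and 62.8 kb after its last. The lists give each peak a score, the authors' own value, read here as MACS's log-transformed p-value. It starts just above 200 in both lists, is higher for smaller p-values and depends on the depth and background of its library, and read depth is unknown. The last replicate 1 peak before the window lay at chr3:95354130-95354486 with a score of 213.65, and its first inside lay at chr3:95450742-95451241 with 240.74. The first replicate 2 peak after the window lay at chr3:95621930-95622867 with a score of 416.39, and its last inside lay at chr3:95543148-95543817 with 389.46. The limits of the window thus cut through no group of peaks.

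**Figure D1:**
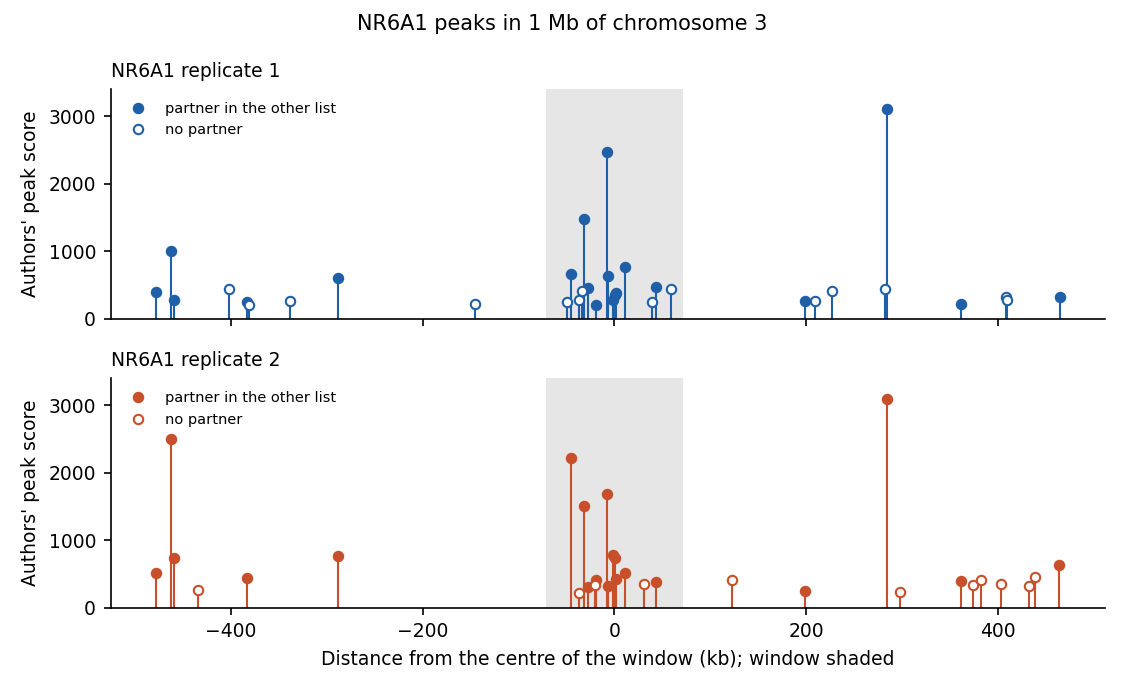
NR6A1 peaks of replicate 1 (top) and replicate 2 (bottom) by distance from the centre of the window (kb) and by the authors' peak score, with filled points for peaks that have a partner in the other list and open points for those without. The shaded window holds 16 and 14 peaks, and the tall pair outside it has a score of 3100 in both lists.

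Of the 19 regions of the window, 11 were found in both lists, 5 had a replicate 1 peak alone and 3 a replicate 2 peak alone. The share found in both was 57.9% (95% Wilson interval 36.3 to 76.9%), against 34.6% of 26 regions in the rest of the 1 Mb (19.4 to 53.8%). Over all 28444 regions it was 31.7%. The window was chosen because regions found in both lists gather in it, so its share describes it and is no test. The intervals overlap, but they cover counting error only and treat regions as independent draws. Taken by list, 68.8% of the window's replicate 1 peaks had a partner (44.4 to 85.8%), against 50.0% in the rest (29.0 to 71.0%) and 42.7% in the whole list. In replicate 2 it was 78.6% (52.4 to 92.4%), against 52.9% in the rest (31.0 to 73.8%) and 56.0% in the whole list. Regions found in both lists were 7.51-fold denser in the window than in the rest, at 7.86 and 1.05 per 100 kb.

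The whole genome was then cut into tiles of 140 kb, placed so that the window was one of them. No tile held more than 11 regions found in both lists, and 2 others held 11. The median was 1 over the 4884 tiles with any. The tiles were fitted to the window, which favours its count over that of any other place. By single lists, 3 tiles had more than the 16 replicate 1 peaks of the window and 1 other had as many. In replicate 2, 2 tiles had more than its 14 peaks and 7 others had as many.

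**Figure D2:**
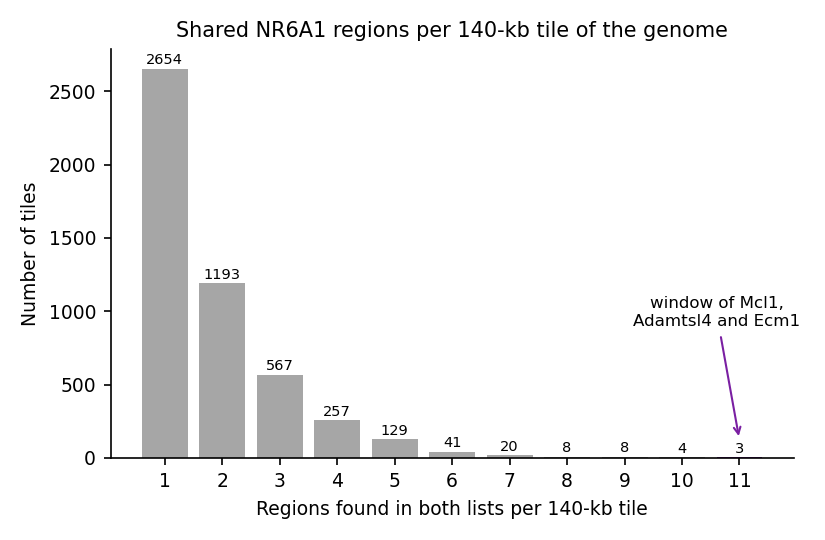
Number of 140-kb tiles of the genome (bars) by the number of regions found in both NR6A1 lists that each holds, among tiles with at least 1. The window is among the 3 tiles with 11 regions, and 2654 tiles hold 1.

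The 11 regions found in both lists were not spread evenly over the window, and 10 of them lay within 57.7 kb at chr3:95454302-95511990. Neighbours among the 11 were a median of 6.27 kb apart, against 68.7 kb over all regions found in both lists. With neighbours joined at gaps of at most 10 kb, they formed a single region, a group of 3, a cluster of 6 and another single region. The cluster spanned 20.2 kb at chr3:95491744-95511990, with gaps of 0.575 to 9.15 kb. The gap before it was 10.6 kb, just above the limit of 10 kb, so the group of 3 and the cluster are separated by the choice of limit. Over the whole genome, 0.833% of regions found in both lists lay in a cluster of 6 or more at that limit. There were 11 such clusters, of which 3 held more than 6 regions and 7 others held 6. With gaps of up to 20 kb, the first single region, the group of 3 and the cluster became 1 cluster of 10 regions. At that limit 1 cluster in the genome held more, with 13 regions, and 1 other held 10. With gaps of up to 5 kb the cluster held 5 regions. At 5 kb, 1 cluster in the genome held more, with 6, and 8 others held 5, of which 5 had a shorter span.

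**Figure D3:**
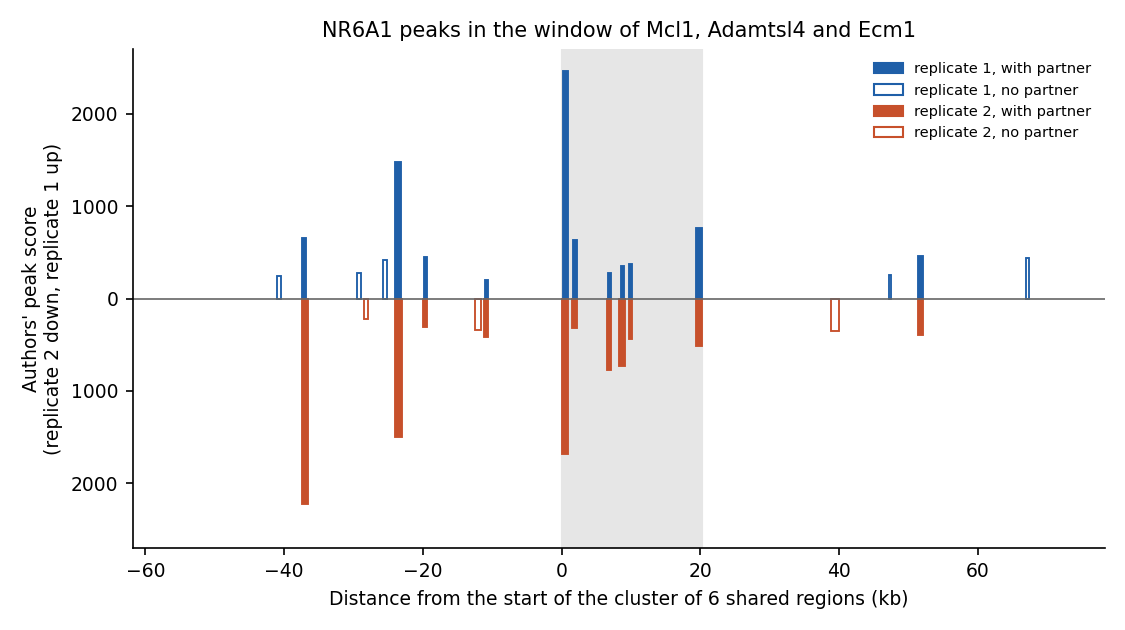
NR6A1 peaks of the window drawn to their width, by distance from the start of the cluster of 6 shared regions (kb, cluster shaded) and by the authors' peak score, with replicate 1 drawn up and replicate 2 drawn down. Filled bars have a partner in the other list, and the 8 open bars, which have none, all stay below a score of 437.

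The cluster began with its strongest region, at chr3:95491744-95492677. Its peak scored 2461.89 in replicate 1, which is the highest of the window in that list and at percentile 97.7 of the whole list. In replicate 2 its peak scored 1681.17, at percentile 94.5. This was 1 of 2 regions of the window with a score of at least 1000 in both lists.

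The second region of the cluster followed after 600 bp, at chr3:95493278-95493923. Its score was 629.81 in replicate 1 and 322.83 in replicate 2, or percentiles 69.0 and 37.5. It is the neighbour of the strongest region and much weaker in both lists. The distance of 600 bp is that between the merged regions and is about the width of a peak. Each list holds the pair as separate peaks. They lay further apart in replicate 1, where the first ended at 95492631 and the second began at 95493381.

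After a gap of 4.32 kb came 3 regions within 3.69 kb. The region at chr3:95498245-95498898 scored 274.89 in replicate 1 and 776.31 in replicate 2, which is 2.82-fold higher in replicate 2. The region at chr3:95500074-95500841 scored 349.96 in replicate 1 and 732.61 in replicate 2. The region at chr3:95501417-95501937 scored 372.80 in replicate 1 and 432.96 in replicate 2. All 3 were below the median score of the whole list in replicate 1, which is 417, and above it in replicate 2, which is 394.

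The cluster ended with the region at chr3:95511084-95511990, after its largest gap of 9.15 kb. Its score was 759.51 in replicate 1 and 513.38 in replicate 2, above the median of the list in both. It was the one partner pair of the window whose replicate 1 peak was the wider, at 907 bp, against 847 bp in replicate 2. Over the cluster the median score was 501 in replicate 1 and 623 in replicate 2, and 3 of the 6 regions scored higher in each.

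Before the cluster, the group of 3 spanned 13.4 kb at chr3:95467750-95481189. Its first region, at chr3:95467750-95468731, scored 1474.72 in replicate 1 and 1501.58 in replicate 2, a ratio of 1.02. It was the other region with both scores at 1000 or more. The second, at chr3:95471775-95472370, scored 449.54 in replicate 1 and 307.50 in replicate 2. The third, at chr3:95480596-95481189, scored 201.60 in replicate 1 and 419.56 in replicate 2. With 201.60 it was at percentile 0.570 of the replicate 1 list, close to the minimum score of that list, so its place among the shared regions rests on a peak at the edge of that list.

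The 2 remaining regions found in both lists stood alone. The first region, at chr3:95454302-95455173, had the largest disagreement of the window, with a score of 660.02 in replicate 1 and 2224.87 in replicate 2. It is the highest score of the window in replicate 2, at percentile 96.9 of the list, and percentile 70.9 in replicate 1. The last, at chr3:95543108-95543817, scored 461.11 in replicate 1 and 389.46 in replicate 2, and lay 31.1 kb after the cluster. The lists therefore place their highest peak of the window at different regions, 36.6 kb apart.

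Scores of 1000 or more were held by 2 of the 16 replicate 1 peaks of the window and by 3 of the 14 replicate 2 peaks. In the whole lists 15.9% of replicate 1 peaks and 14.0% of replicate 2 peaks reached that score, and counts of 2 and 3 are too small to set apart from those shares. The median score of the window's peaks was 424 in replicate 1, against 298 in the rest of the 1 Mb and 417 in the whole list. In replicate 2 it was 426, against 416 in the rest and 394 in the whole list. The window's medians thus lay near those of the whole lists, and its density is one of number and not of high scores. The highest pair of the 1 Mb lay outside the window, at chr3:95783995-95785167, with a score of 3100 in both lists, a value at which many peaks of each list are tied.

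Partner peaks overlap by definition, so that they lie at the same place in both lists is no result. Their scores agreed only loosely. Their midpoints lay 6 to 110 bp apart over the 11 pairs, with a median of 36.0 bp, against 51.5 bp in 9 pairs of the rest and 37.5 bp over 9223 pairs of the whole lists. The replicate 2 peak was the wider in 10 of 11 pairs, against 9 of 9 in the rest and 70.6% of all pairs. Its width was a median of 1.25 times that of replicate 1, against 1.34 times in the rest and 1.14 times over all pairs. Scores were within 2-fold of each other in 7 of 11 pairs, against 6 of 9 in the rest and 65.4% of all pairs. Replicate 1 scored higher in 5 pairs of the window and replicate 2 in 6, whereas in the rest replicate 1 scored higher in 1 pair, replicate 2 in 7, and 1 pair was tied at 3100. The Spearman rho of the scores was 0.40 across the 11 pairs and 0.029 across the 6 of the cluster, against 0.88 across the 9 pairs of the rest and 0.38 across all pairs. Pairs are sites of 1 library per replicate that share its depth, so this describes the lists and is not a correlation across samples. Both scores lay above the median of their list in 4 of the 11 pairs, against 3 of 9 in the rest and 44.4% of all pairs. None of these traits was tested between the window and the rest.

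**Figure D4:**
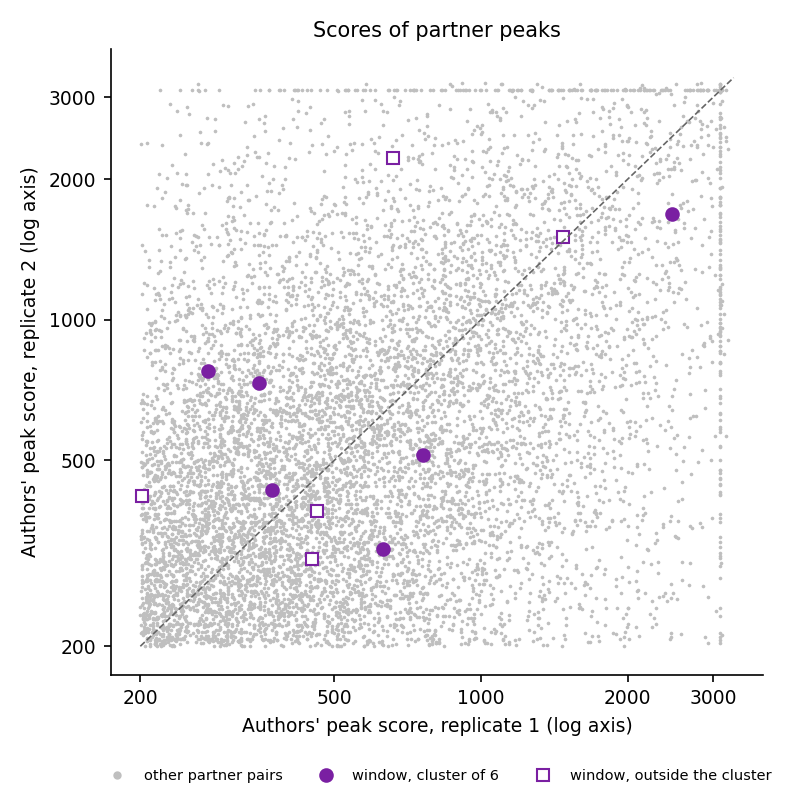
Authors' peak score in replicate 2 against that in replicate 1 (log axes) for partner peaks, with the 6 regions of the cluster as filled circles, the 5 other shared regions of the window as open squares, other pairs in grey and the line of equal scores dashed. The members lie among the other pairs on both sides of the line, and 7 of 11 are within 2-fold of it.

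The 8 regions found in one list only had low to middling scores, and 1 of them lay above the median of its list, a replicate 1 peak with 436.74 at percentile 52.4. The 5 replicate 1 peaks without a partner scored 240.74 to 436.74, with a median of 274. The 3 replicate 2 peaks without a partner scored 221.31 to 354.59, with a median of 341. Medians of the window's peaks with a partner were higher, at 461 in replicate 1 and 513 in replicate 2, and in the whole lists they were likewise 521 with a partner and 363 without in replicate 1, and 510 with and 314 without in replicate 2. None of the 8 lay inside the cluster of 6. A pair of them, at chr3:95462315-95462886 in replicate 1 and chr3:95463238-95463795 in replicate 2, missed each other by 351 bp. The replicate 2 peak at chr3:95479196-95480155 lay 491 bp from the nearest replicate 1 peak, which is the partner of another replicate 2 peak. The others lay 1.23 to 14.8 kb from the nearest peak of the other list. The widest peak of the window, at chr3:95530569-95531721 in replicate 2 with 1153 bp and a score of 354.59, was one of these. The lists give no reads, so a peak missing from a list cannot be told apart from one just under its threshold.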

How the data were processed

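The authors deposited 1 peak list per NR6A1 sample, each peak with a position and a score, and the submitters' processing notes name Bowtie 0.12.7, MACS and build mm9 without their roles. Not given in the sources used here are the MACS version, the control library and the peak threshold. Because every deposited list numbers its own peaks, peaks were taken as called per sample. Positions are printed with the first base as 1. Peaks overlapping by at least 1 bp were partners and were merged into regions (Python 3.11.15, pandas 2.3.3, numpy 2.4.6, with the same partner counts from bedtools 2.31.1). Percentiles are ranks of the score within its own list. Shares carry 95% Wilson intervals (scipy 1.17.1), which cover counting error only. The overlap code was tested on simulated lists. The deposited score was used only within a list or side by side for partners. Depth is unknown. Promoters and gene order came from RefSeq tables of GRCm38.p6, which were searched for 3 motifs, and the count of mismatches was added after the promoters had been seen. All 3 genes matched by symbol. All peaks of the window are described. The window, genes and measures were chosen with earlier results of these data known, and no test was run because the peaks chose the window. The 2 vector samples were not analysed here.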

Additional observations from a re-analysis of the deposited data

How the results depend on the processing

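Of 20 values under an alternative, 15 stayed within their limit and 5 moved. Counts, shares and medians have no direction, so none could reverse. The limit was a factor of 1.5 for a count and the 95% interval of the reported value for a share or a median, which is wide for 14 or 16 peaks. With the peaks above the median score of their list (the upper 50%), there were 4 regions found in both lists of 11, 12 regions in either list of 19, and a partner for 50.0% of the replicate 2 peaks instead of 78.6%. Of the cluster of 6, 2 regions were left, too far apart to be joined at 10 kb, so the cluster around the strongest region shrank to 1. The median score of the window's peaks became 645 in replicate 1, against 424 as reported, and 754 in replicate 2, against 426. Both medians count as within their limit, as does the replicate 1 share with a partner, which fell from 68.8% to 50.0%. That setting by construction keeps only high scores and removes pairs in which 1 score is low. Joining neighbours at gaps of up to 20 kb made the cluster 10 regions, and at gaps of up to 5 kb it held 5. Leaving out a replicate gave 14 to 16 regions in either list, and no count of shared regions can then be made. No paired analysis was possible because no list of the vector samples was used. With 1 list per replicate and no reads per peak, depth limits what a missing partner shows.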
